A study of Mus musculus with 2 samples.

Results

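The genes of glucose uptake, glycolysis, lactate handling and glycogen metabolism were followed in whole hearts of 2 mice. The set is a list of 42 named genes, of 55536 mouse genes in the tables, together with the transcripts of the pyruvate kinase gene Pkm. All 42 symbols were found. The animals were females of the strain B6CASTF1/J, a first-generation hybrid of C57BL/6J and CAST/EiJ mice, aged 36 days and supplied by The Jackson Laboratory. Neither was treated, as far as the labels say, and they form 1 group with no other group beside it. Replicate 1 is animal 3 and replicate 2 animal 4 of the labels, with separate tissue samples but 1 shared donor identifier, and here they are taken as 2 animals. The data therefore give the level of each gene, the form that prevails at each step and the distance between both libraries, and no contrast of conditions.

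Glycolysis breaks glucose down to pyruvate in the cytosol, through the steps from hexokinase to pyruvate kinase, and lactate dehydrogenase converts pyruvate and lactate into each other. Most of these steps have several forms encoded by separate genes, with forms typical of muscle, liver, brain or growing cells. Glycogen is the branched store of glucose: synthase and branching enzyme build it on a glycogenin core, and phosphorylase, switched on by phosphorylase kinase, takes it apart. The adult heart burns mainly fatty acids and lactate, and also takes up glucose under the control of insulin and work.

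Sequencing gave 39053339 expected counts, the reads estimated for each gene, in replicate 1 and 38332179 in replicate 2. Levels below are TPM, the abundance of transcripts scaled to their length and to a fixed sum per library, which can be compared between genes, given as the mean ± SD over n = 2 or as replicate 1 and replicate 2. The 6 cardiomyocyte markers all passed 1 TPM, with summed levels of 27573 and 27094 TPM, and none was called between the libraries. Markers of other cell types were present too. The summed level of 7 erythroid markers was 36364 and 11883 TPM, and that of 4 brown adipocyte markers 97.5 and 29.9 TPM. The 5 white adipocyte markers summed to 56.6 and 32.4 TPM. Fibroblast markers summed to 551 and 569 TPM, and endothelial markers to 168 and 154 TPM. Smooth muscle markers gave 104 and 88.5 TPM, and macrophage markers 72.7 and 74.0 TPM. Neuronal and Schwann markers (3.49 and 3.90 TPM) and hepatocyte markers (6.91 and 4.84 TPM) were low. No marker of the fibroblast, endothelial, smooth muscle, macrophage, neuronal or hepatocyte lists was called. The skeletal muscle marker Acta1, which heart muscle also makes, stood at 511 and 308 TPM, and the other 7 skeletal muscle markers at 1.14 TPM or less. Of these, the fast skeletal myosin Myh4 was at 0 in both libraries in the first of the 2 deposited quantifications, which is used throughout unless the second is named, and at 5.37 and 7.76 estimated counts in the second.

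Pyruvate kinase is the one step where the muscle form and its alternative come from a single gene. Pkm lies on chromosome 9 (build mm10, 59656368 to 59679375, plus strand), and its transcripts use 1 of 2 mutually exclusive coding exons of 167 bases. The upstream exon makes the M1 type, known from adult muscle and brain, and the downstream exon the M2 type, known from growing tissue and many other adult cells. Both exons are shown because the ratio of these transcripts is one of the results that turned on the way of counting. Each is given 5′ to 3′ on the plus strand from GENCODE M21 transcripts of the mm10 reference, with capitals at the 64 positions where they differ. The hybrid's CAST alleles may differ from this reference.
Pkm-202 exon (chr9:59675029-59675195): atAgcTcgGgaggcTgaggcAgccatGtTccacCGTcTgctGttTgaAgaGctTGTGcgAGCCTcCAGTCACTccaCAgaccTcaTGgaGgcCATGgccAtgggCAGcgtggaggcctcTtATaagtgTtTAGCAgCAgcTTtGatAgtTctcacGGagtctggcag
Pkm-201 exon (chr9:59675568-59675734): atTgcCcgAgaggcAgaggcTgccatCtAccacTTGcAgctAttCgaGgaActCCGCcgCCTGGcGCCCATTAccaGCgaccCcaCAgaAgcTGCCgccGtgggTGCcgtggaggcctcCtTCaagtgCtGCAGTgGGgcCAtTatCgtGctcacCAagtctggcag
The exons are 61.7% identical base for base and both transcripts have a coding length of 1593 bases with 9 coding exons in common. Of the 11 annotated Pkm transcripts, Pkm-201 alone overlaps the M2-type exon. Pkm-202 and the intron-retaining Pkm-203 overlap the M1-type exon.

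Pkm stood at 456 and 392 TPM in all. In the first of the 2 deposited quantifications, made from alignments, the M1-type Pkm-202 had 233 and 207 TPM and the M2-type Pkm-201 had 216 and 179 TPM. Pkm-202 thus took 52.1% ± 1.26 and Pkm-201 46.5% ± 1.18 of the gene's TPM. The authors' credibility intervals for replicate 1, 222 to 234 TPM for Pkm-202 and 206 to 216 TPM for Pkm-201, do not overlap. In the second quantification, made directly from reads with an index of transcripts, the order was the other way round. Pkm-201 had 263 and 224 TPM there (47.8% ± 0.82), and Pkm-202 had 245 and 211 TPM (44.8% ± 0.27). A short coding transcript, Pkm-206, took most of the rest, at 32.6 and 34.9 TPM against 1.05 and 0.80 TPM in the first quantification. Each main type thus took between 44.6% and 53.0% of the gene in each animal and table, and which type was ahead differed between the quantifications. These shares do not come from the exon alone, since Pkm-201 also has 205 bases in its first and 186 bases in its last exon that Pkm-202 lacks.

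**Figure D1:**
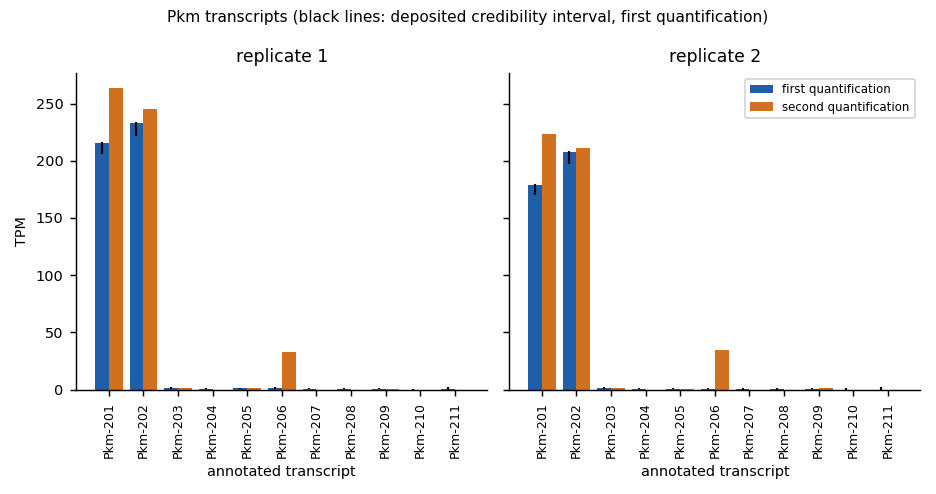
TPM (vertical axis) of the 11 annotated Pkm transcripts in replicate 1 (left) and replicate 2 (right), in the first (blue) and second (orange) quantification, with black lines for the authors' credibility intervals of the first. Pkm-202 is the taller of the main pair in blue and Pkm-201 in orange, in both animals.

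Of the 42 genes, 38 reached 1 TPM in both libraries. The 4 that did not were all second-line forms: the neuronal glucose transporter Slc2a3 (0.87 and 0.56 TPM), the brain aldolase Aldoc (0.39 and 0.58 TPM), the neuronal enolase Eno2 (0.91 and 1.03 TPM) and the lactate exporter Slc16a3 (1.07 and 0.67 TPM). The median level of the genes tested between the libraries was 6.73 TPM, and that of the 42 members 41.6 TPM. The list was chosen with earlier results of these data known. A further 27 forms and subunits of the same families had a median of 0.30 TPM, with 9 detected. The figures therefore hold for the list and not for the whole pathway. Together the members took 0.890% and 0.801% of all TPM.

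**Figure D2:**
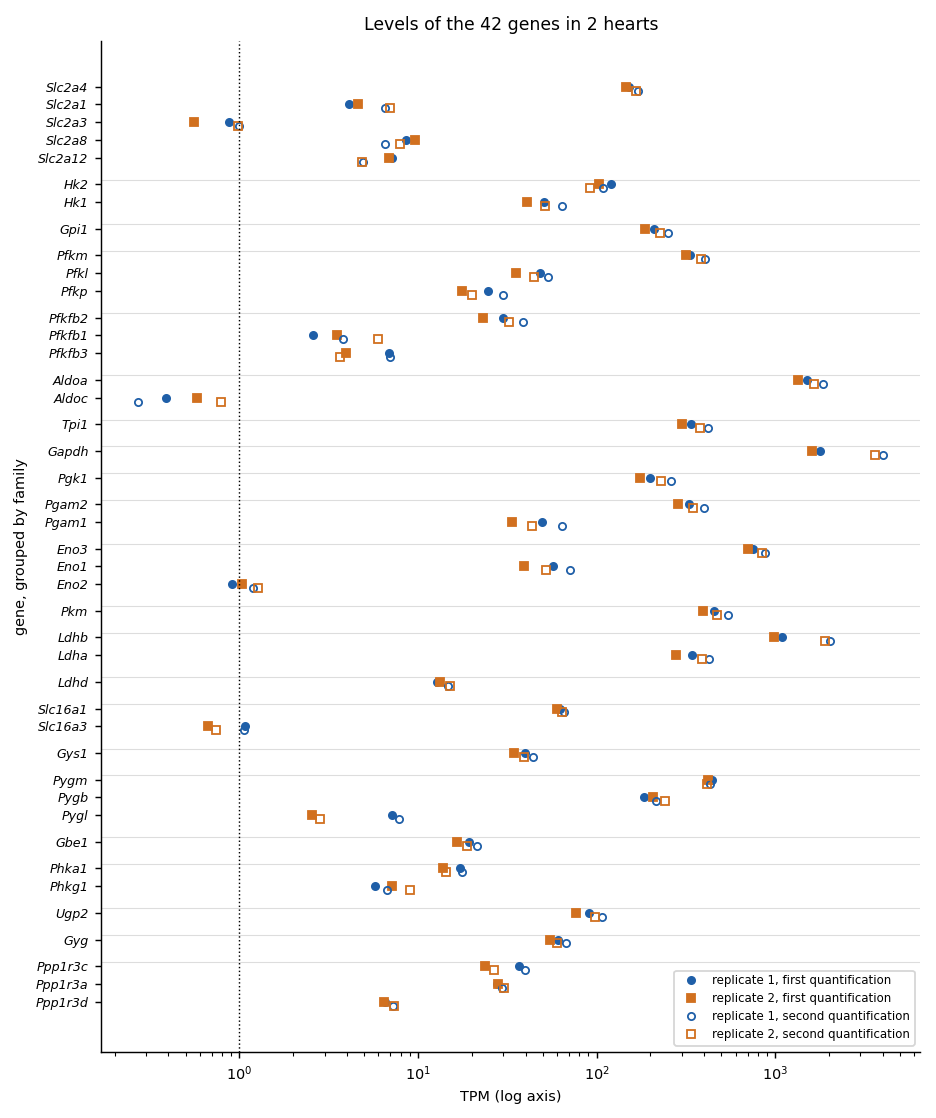
TPM of the 42 genes (log axis), grouped by family, in replicate 1 (blue circles) and replicate 2 (orange squares), filled for the first and open for the second quantification. The dotted line marks 1 TPM, and the levels run from 0.485 TPM (Aldoc) to 1698 TPM (Gapdh) on average in the first quantification.

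The transcripts of the 5 listed glucose transporters came mostly from 1 gene. Slc2a4, the insulin-regulated transporter GLUT4 (chromosome 11, 69942539 to 69948188), stood at 151 and 146 TPM and made 87.5% ± 0.62 of the TPM of the 5 transporters. Slc2a8, an intracellular hexose transporter, followed at 8.59 and 9.62 TPM. The insulin-responsive Slc2a12 had 7.12 and 6.86 TPM, and the ubiquitous basal carrier Slc2a1 (GLUT1) 4.10 and 4.59 TPM. These last levels lie far below Slc2a4, and their order changed with the quantification: in the second, Slc2a8 was at 7.198, Slc2a1 at 6.75 and Slc2a12 at 4.89 TPM on average.

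The first committed steps had low to middling levels. Hk2, the insulin-regulated hexokinase of muscle, stood at 119.8 and 103 TPM, and Hk1, the widely made form, at 50.7 and 40.7 TPM. The share of Hk2 was 70.9% ± 0.93 and 63.6% in the second quantification. The isomerase Gpi1 was at 209.8 and 187 TPM. Of phosphofructokinase, the pacemaker of the pathway, the muscle subunit Pfkm (335 and 316 TPM) made 83.9% ± 2.52, ahead of the liver subunit Pfkl (48.5 and 35.3 TPM) and the platelet subunit Pfkp (24.7 and 17.6 TPM). Subunits of this enzyme assemble into tetramers. Its activator fructose 2,6-bisphosphate is made and removed by the Pfkfb enzymes, which had 11.1-fold less summed TPM than phosphofructokinase. The heart form Pfkfb2 led them with 29.8 and 22.98 TPM (75.7%), ahead of the inducible Pfkfb3 (6.85 and 3.94 TPM) and the liver and muscle form Pfkfb1 (2.58 and 3.51 TPM).

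The steps after phosphofructokinase differed widely in level. Aldoa, the muscle aldolase that splits the hexose, stood at 1496 and 1343 TPM and took 99.97% of the aldolase TPM. Gapdh, which oxidises the triose phosphate, was the highest member by TPM, at 1785 and 1612 TPM. Of this TPM, 72.8% lay on a short transcript annotated as not coding, described below. In expected counts, which are not divided by length, Aldoa was ahead of Gapdh, with 65076 and 57097 against 33642.5 and 29227.8. The isomerase Tpi1 between them was at 338 and 299 TPM. Pgk1, which makes the first ATP of the pathway, was lower at 198 and 175 TPM. The muscle mutase Pgam2 had 327 and 286 TPM against 49.3 and 33.6 TPM of the widely made Pgam1. Eno3, the muscle enolase, had 747 and 705 TPM against 56.7 and 39.1 TPM of the widely made Eno1.

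Summed over the forms of each step, the 10 steps from hexokinase to pyruvate kinase spanned 10.8-fold in the first quantification, from the hexokinases (157 ± 19.3 TPM) to Gapdh (1698 ± 122 TPM). Pgk1 (186 ± 16.6 TPM) and Gpi1 (199 ± 15.9 TPM) were the next lowest. The hexokinases were lowest in each animal, at 170.5 and 143 TPM. In the second quantification the hexokinases were again lowest (158 TPM) and Gapdh highest (3809 TPM), 24.04-fold apart. The span therefore depends on how Gapdh was counted, and the hexokinases' own sum differed little between both tables.

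Lactate dehydrogenase was led by the heart form. Ldhb, whose subunit favours the conversion of lactate to pyruvate (chromosome 6, 142490249 to 142507957), stood at 1091 and 986 TPM, and Ldha, the muscle form (chromosome 7, 46841475 to 46855627), at 339.8 and 279.6 TPM. Ldhb made 77.1% of the TPM of both, or 82.9% by the second quantification. Of the expected counts, which are not divided by length, it had 69.7%. The D-lactate dehydrogenase Ldhd was at 12.9 and 13.2 TPM. Of the lactate carriers on the list, Slc16a1 (MCT1), the carrier for uptake in oxidative muscle, stood at 62.3 and 59.9 TPM. It made 98.6% of the TPM of this gene and Slc16a3 (MCT4). A further carrier outside the list, Slc16a7 (MCT2), had 4.90 and 5.39 TPM and is not in this share.

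Glycogen phosphorylase stood far above glycogen synthase. Pygm, the muscle phosphorylase (chromosome 19, 6384399 to 6398459), had 442 and 422 TPM, and Pygb, the brain form that the heart also makes, 185 and 206 TPM. Pygm made 68.3% ± 1.97 and Pygb 30.9% ± 2.48 of the phosphorylase TPM, and the liver form Pygl (7.15 and 2.55 TPM) the remaining 0.77%. The muscle synthase Gys1 stood at 39.6 and 34.6 TPM. Phosphorylase TPM was thus 16.01-fold and 18.2-fold that of synthase in replicates 1 and 2, and 15.7-fold on average in the second quantification. TPM of different genes do not give amounts of enzyme.

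The other genes of glycogen synthesis lay on both sides of Gys1. Ugp2, which makes UDP-glucose, was at 90.7 and 76.3 TPM, the primer protein gene Gyg at 60.9 and 54.5 TPM and the branching enzyme Gbe1 at 19.4 and 16.6 TPM. The muscle regulatory subunit Phka1 of phosphorylase kinase had 17.2 and 13.8 TPM and the catalytic subunit Phkg1 5.75 and 7.12 TPM. Of the subunits that bring protein phosphatase 1 to glycogen, Ppp1r3c had 36.5 and 23.7 TPM, the muscle subunit Ppp1r3a 27.7 and 28.2 TPM, and Ppp1r3d 6.56 and 6.44 TPM. Ppp1r3c was ahead in replicate 1 (51.6% of the 3) and Ppp1r3a in replicate 2 (48.3%), so no leading subunit can be given.

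**Figure D3:**
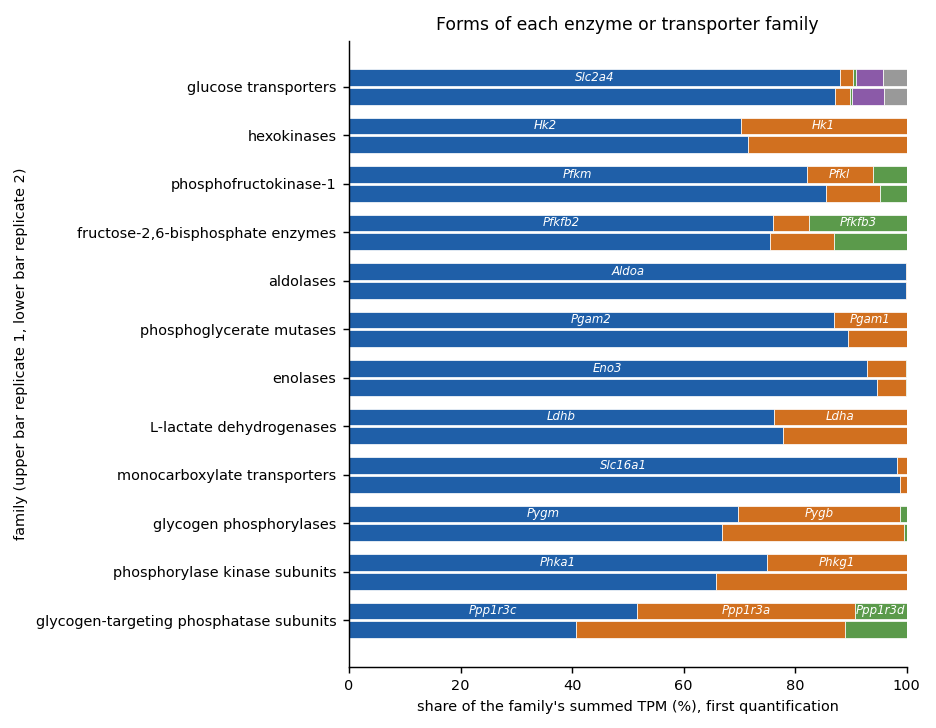
Share of each form in the summed TPM of its family (horizontal axis, %), first quantification, for the 12 families with more than 1 listed form; the upper bar of each pair is replicate 1 and the lower replicate 2, and forms follow the order of the plot of levels. The leading form takes at least 65.9% in both animals in 11 families, and in the phosphatase subunits the lead changes between Ppp1r3c and Ppp1r3a. The 65.9% is that of Phka1 in replicate 2, and Phka1 and Phkg1 are different subunits of the same enzyme, not alternative forms.

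The libraries were then compared gene by gene on the expected counts, by an exact two-sided binomial test with Benjamini-Hochberg adjustment over 13745 genes. Ratios are of replicate 2 over replicate 1, on the TMM scale, which sets the typical gene to no difference. Such a test compares the reads of 2 libraries; it says nothing of conditions, and the spread between animals is not in it. Called means an adjusted p under 0.05 and a ratio of 2-fold or more, which held for 1.53% of genes. Of the 41 members tested, 1 was called, the liver phosphorylase Pygl. Aldoc, with 11 and 18 counts, was not tested.

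Pygl (chromosome 12, 70190811 to 70231488) had 604 and 204 expected counts. Its log2 ratio was -1.46, with a 95% counting interval of -1.70 to -1.23 and an adjusted p of 7.1e-39 by the exact binomial test. In edgeR's exact test it had an adjusted p of 6.2e-06, a description only, since the common dispersion comes from the same 2 libraries that are compared, with 1 on each side. Replicate 1 was high and replicate 2 low in both quantifications. Genes of the same direction included all 7 erythroid markers, all called, and 3 called ones of 4 brown adipocyte markers, among them the uncoupling protein Ucp1 (52.6 and 7.95 TPM). Of the 5 white adipocyte markers, 3 were tested and passed at any fold, and Plin1 (15.3 and 4.45 TPM) and Adipoq (11.5 and 4.24 TPM) were called. No marker of these 3 lists was at 0 in both libraries. Their part in the Pygl result was not tested. In whole tissue, fewer cells of a type and less RNA per cell cannot be told apart.

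Without the fold threshold, 30 of 41 members passed the same test, as did 21.9% of all genes. Among them 25 were lower in replicate 2 (11.8% of all genes) and 5 higher (10% of all genes), while with the spike-in RNAs as the scale 25 were higher (55.2% of all genes) and 7 lower (2.66% of all genes). On the TMM scale the members' median log2 ratio was -0.13, against 0.00 for all genes tested. The spike-in scale adds the same amount to every gene and moved the median of all genes to 0.24. Of the 30 members at 10 TPM or more, 25 passed the test on the TMM scale, against 1801 of 5319 genes at 10 TPM or more. The groups are not matched in level, with medians of 97.3 and 23.2 TPM, and higher counts pass this test at smaller ratios. With the common dispersion of both libraries put into edgeR's exact test, far fewer members passed at any fold, and so did far fewer of all genes.

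**Figure D4:**
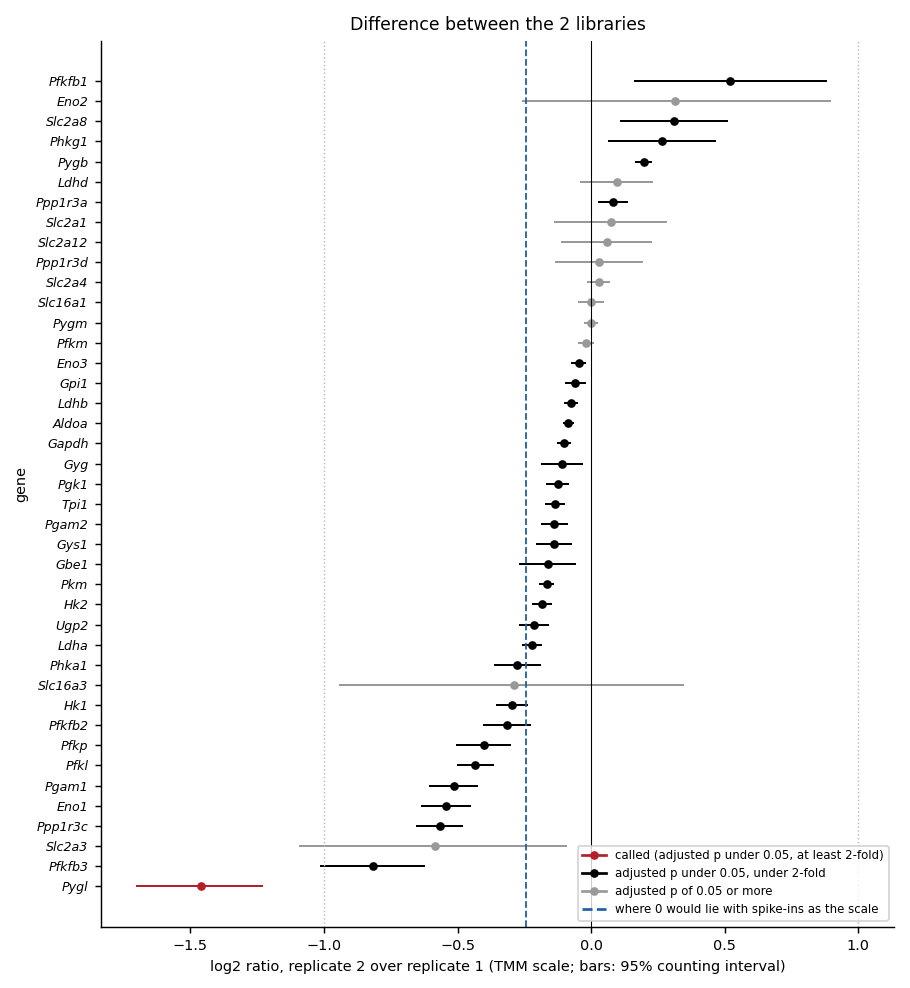
Log2 ratio of replicate 2 over replicate 1 (horizontal axis, TMM scale) for the 41 tested genes, with 95% counting intervals; red marks the called gene, black an adjusted p under 0.05 below 2-fold, grey the rest. Pygl at -1.46 stands apart from the others, which lie between -0.82 (Pfkfb3) and 0.52 (Pfkfb1); the dashed line shows where 0 lies on the spike-in scale, and 15 of the black genes left of 0 lie to the right of it.

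A comparison within a family does not depend on that scale, since it sets the ratio of one form against that of the leading form in the same libraries. It was added after the values were seen and carries no test beyond its 95% counting interval. In 11 families the same form led in both animals. Of their 18 other forms, 9 were lower in replicate 2 relative to the leading form, with an interval below 0. Another 4 were higher with an interval above 0, and 5 had an interval that includes 0. The 4 include Phkg1 against Phka1, which are different subunits of the same enzyme and not alternative forms. All 13 outside 0 had the same sign in the second quantification, which counts reads of the same libraries again and is no independent check. The like was not counted for other genes.

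Among the lower forms, Eno1 differed from Eno3 by -0.49 (interval -0.59 to -0.40) on the log2 scale, Pfkl from Pfkm by -0.41 (-0.48 to -0.34), Pfkp from Pfkm by -0.38 (-0.48 to -0.28) and Pgam1 from Pgam2 by -0.38 (-0.48 to -0.28). The difference was smaller for Ldha against Ldhb, at -0.15 (-0.19 to -0.11), and for Hk1 against Hk2, at -0.11 (-0.18 to -0.04). Pfkfb3 differed from Pfkfb2 by -0.50 (-0.71 to -0.30), the minor carrier Slc2a3 from Slc2a4 by -0.61 (-1.09 to -0.13), and Pygl from Pygm by -1.46 (-1.69 to -1.23). In the hexokinases, phosphofructokinases, mutases, enolases and lactate dehydrogenases, the leading form thus had a larger share in replicate 2 than in replicate 1. By TPM this also held for Slc16a1 (98.3% and 98.9%). The leading share by TPM was smaller in replicate 2 for Pygm (69.7% and 66.9%) and Slc2a4 (88.0% and 87.1%). It was smaller too for Phka1 (74.9% and 65.9%) and Aldoa (99.97% and 99.96%). For Pfkfb2 the direction differed by measure: its share was smaller in replicate 2 by TPM (76.0% and 75.5%) and larger by expected counts (76.8% and 79.2%). The direction was therefore not general. Replicate 2 is the animal with the lower erythroid and adipocyte marker sums given above. The part of these markers was not tested.

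Among the higher forms, Pygb differed from Pygm by 0.20 (0.16 to 0.23), the subunit Phkg1 from the subunit Phka1 by 0.54 (0.33 to 0.75), Pfkfb1 from Pfkfb2 by 0.83 (0.48 to 1.19) and Slc2a8 from Slc2a4 by 0.28 (0.08 to 0.48). The phosphatase subunits are not in these counts, since their lead changed between the animals: Ppp1r3a differed from Ppp1r3c by 0.65 (0.55 to 0.75) and Ppp1r3d from Ppp1r3c by 0.60 (0.42 to 0.78). The log2 ratio of Ppp1r3c itself was -0.57 on the TMM scale. The leading forms of the other families ranged from Pfkfb2 at -0.31 to Slc2a4 at 0.03. Pygm and Slc16a1 lay at 0.00 on that scale.

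Several members have close copies elsewhere in the genome. For 11 members, at least 10% of the 31-base words of their coding transcripts were also in transcripts of other genes, with Pgk1 (68.3%), Gapdh (62.6%), Eno1 (53.5%) and Pgam1 (42.1%) highest. The second quantification gave 1.202-fold (Pkm) to 2.24-fold (Gapdh) the TPM of the first for these 11, with a median of 1.30. For the 26 members under 1% the ratio ran from 0.70 (Slc2a12) to 1.61 (Pfkfb1), with a median of 1.12. The median over the 12364 genes with at least 1 TPM was 1.16. The counting intervals of the members do not cover this difference.

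Of the 5 other genes that share most of these words with a member, those holding at least 5% are called its copies here. These are 31 for 12 members. For Gapdh and Ldha all 5 reached that mark, so any further copies of these members were not counted. Of them, 10 had at least 50 expected counts over both libraries in the first quantification and 10 had 3 or fewer. Eno1b, the largest, had 1476 and 910 expected counts, 56.3% and 54.2% of those of Eno1. With all 4 copies of the enolases counted with the forms they resemble, the share of Eno3 went from 93.7% to 89.8%. A copy of Pgk1, Gm5537, had 805 and 808 counts in the first quantification and 0 in the second. A copy of Gapdh, Gm7336, had 681 and 639 counts in the first and 22051 and 18465 estimated counts in the second. Which of these genes the reads came from was not tested.

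**Figure D5:**
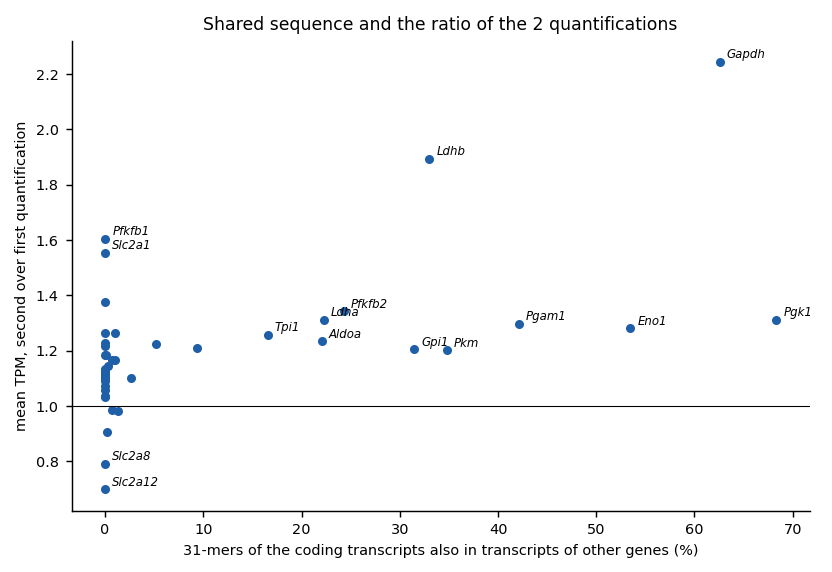
Ratio of the mean TPM in the second quantification to that in the first (vertical axis) against the percent of 31-base words of each member's coding transcripts that other genes share (horizontal axis), 1 point per gene. All 11 members at 10% or more lie at 1.202 or above, with Gapdh at 2.24, and the 26 members under 1% run from 0.70 to 1.61.

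The transcript that led each gene was the same in both quantifications for 31 members and differed for 11. For Pfkm, Eno3 and Ldha the differing leaders have identical coding exons. Ldha-202 took 98.3% of the gene in the first quantification and 24.04% in the second, which put Ldha-201 first (42.4%, and 0 in the first). Pfkm-205 (42.2%) gave way to Pfkm-201 (44.1%), and Eno3-201 (51.5%) to Eno3-202 (68.5%). For glycogenin the leaders differ in the coding part: Gyg-203 (95.3%, 999 coding bases) and Gyg-201 (73.3%, 1131 coding bases). Gbe1-201 led with 44.9% in the first, and Gbe1-203 with 98.0% in the second. Hk1-202 (61.2%) was replaced by Hk1-205 (39.3%), and Pfkfb3-214 (26.7%) by Pfkfb3-206 (28.6%).

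Short transcripts held much of the TPM of Gapdh and Ldhb. Gapdh was led in the first quantification by Gapdh-208, a transcript of 483 bases annotated as not coding, with 72.8% of the TPM and 0 in the second. In the second, Gapdh-207 of 471 bases led with 54.2%. Ldhb-201, the full form, took 77.7% in the first, and Ldhb-202 of 437 bases led in the second with 37.7%. A read counts for more TPM on a short transcript, so the TPM of these genes depends on where their reads were placed. Aldoc-204 (53.9%) and Aldoc-202 (67.2%) led a gene that was below 1 TPM.

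Related genes outside the 42 give the setting. Of 27 further forms and subunits of the same families, 9 were detected and 5 were at 0 in both libraries. The phosphorylase kinase subunit Phkb was highest (20.2 and 20.8 TPM). Of 10 genes of glycogen breakdown and quality control, 9 were detected and none called. Pgm1, which joins glycogen and glycolysis, was highest (91.2 and 89.5 TPM), and the glycogen tether Stbd1 lowest (0.55 and 0.58 TPM).

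All 8 genes of the pentose phosphate pathway, which branches off after hexokinase, were detected. On the TMM scale 6 passed the test at any fold, all lower in replicate 2, as were 11.8% of all genes. On the spike-in scale 3 did, all lower, as were 2.66% of all genes. Transketolase Tkt was called on both scales, at 44.2 and 18.1 TPM (log2 ratio -1.27 on the TMM scale). Taldo1 was highest (53.6 and 41.8 TPM) and the entry enzyme G6pdx lowest (3.69 and 2.56 TPM). Of 8 gluconeogenesis genes, 5 were detected and tested. On the TMM scale 3 passed at any fold, 1 higher in replicate 2 (10% of all genes) and 2 lower (11.8% of all genes). On the spike-in scale 2 were higher (55.2% of all genes) and 2 lower (2.66% of all genes). Pck1, which is also active in fat, had the highest mean of them, at 38.3 and 9.44 TPM, and was called (log2 ratio -1.97). In replicate 2 it lay below G6pc3, at 16.9 and 17.1 TPM. G6pc2, a glucose-6-phosphatase form, was at 0.

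Among 9 shuttle and pyruvate entry genes, all detected, the malate dehydrogenase Mdh1 was highest (956 and 883 TPM) and the carrier chaperone Emb lowest (4.39 and 3.75 TPM). On the TMM scale 5 passed at any fold, all lower in replicate 2 (11.8% of all genes). On the spike-in scale 6 were higher (55.2% of all genes) and 2 lower (2.66% of all genes). Gpd1, the cytosolic glycerol-3-phosphate dehydrogenase, was called at 64.8 and 21.97 TPM (log2 ratio -1.55). All 15 regulators of glucose use were detected, between Arrdc4 (3.63 and 3.51 TPM) and Txnip, a brake on glucose uptake (327 and 233 TPM). Bpgm, known from red cells, was called at 54.4 and 21.3 TPM (log2 ratio -1.23), though no regulator was called on the spike-in scale. Tkt, Pck1, Gpd1 and Bpgm, like Pygl, were higher in the library with the higher erythroid and adipocyte sums. The part of those cells was not tested.

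The promoters of the members were read for short motifs on both strands, in windows from 250 bases before to 50 after each start, taken from RefSeq on the GRCm38.p6 build. Of the 42 genes, 40 were matched. The word ACGTG, a form of the core bound by hypoxia-inducible factors, was in a window of 23 of the 40 genes (57.5%). That compares with 29.8% of 8820 coding genes with at least 1 TPM and 21.8% of all 27025 genes. CACGTG, which contains ACGTG and is the E-box of ChREBP, MYC and USF factors, was in 9 (22.5%), against 12.01% and 8.09%. GCGTG, the other form of the core of hypoxia-inducible factors, was in 25 (62.5%, against 57.2% and 35.2%). TATAAA was in 4 (10%, against 8.53% and 15.7%) and CTATTT in 8 (20%, against 9.66% and 13.7%). The 40 genes have 58 windows, and ACGTG was in 46.6% of these, against 25.5% and 19.6% of the windows compared. These are counts of letters, and no binding was measured.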

How the data were processed

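Total RNA of whole heart was sequenced in 1 library from each of 2 animals, from 300 ng with spike-in RNAs added, per the labels. The deposited tables rest on build mm10 and annotation M21, per the deposited description files, and what programs were run is not stated in the sources used here. The alignment-based quantification holds the authors' expected counts, estimated reads not normalized, and the authors' TPM, per effective length with a fixed sum per library. The deposited score columns used are the posterior mean TPM and credibility bounds, per the file headers. The second quantification holds the authors' estimated counts and TPM per transcript, summed here per gene. The 97 spike-in rows and 26248 rows with a bare number for a name did not enter the tests. Reads of the CAST allele were counted on a C57BL/6J reference.

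Expected counts were rounded and compared with TMM sizes (edgeR 4.0.16) where both counts summed to 50 or more. Ratios have 0.5 added to each count. The exact binomial test (SciPy 1.17.1) was tested on simulated counts of 13745 genes. These held counting noise only, which the test assumes, and no spread between animals. It called 48 of 50 genes at 3-fold, 1 of 50 at 1.5-fold and 0 of 13545 unchanged ones. At any fold, 42 of the 50 genes at 1.5-fold passed, and 10 of the unchanged ones. Intervals and p-values cover counting error only. The biological coefficient of variation over both libraries was 0.113. The members and lists were chosen with earlier results of these data known. Named were all members, the highest, lowest and called gene of each further list (1 of them is not reported here), the Pkm transcripts with at least 5% and the leading transcripts that differ between quantifications. Other genes of those lists enter counts only. G6pc3, Slc16a7 and the copies Eno1b, Gm5537 and Gm7336 were named after their values were seen. Where 2 gene identifiers share the symbol Aldoa, the one with the higher TPM was used. Alternatives were DESeq2 1.42.0 size factors, plain totals, spike-in totals, the second quantification, posterior means, other thresholds and leaving out each replicate.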

Additional observations from a re-analysis of the deposited data

How the results depend on the processing

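The number of members detected and the number past the exact binomial test at any fold were set against alternatives. Both stayed within 1.5 times under the alternative scales, count filter, TPM thresholds and quantifications. With edgeR's common dispersion the number past the test was far smaller, as given above. At a 1.5-fold threshold, 2 members were called in place of 1 (Pfkfb3 and Pygl), and 487 genes in place of 210. The share of Pkm-202 was 52.1% and became 44.8% in the second quantification, behind Pkm-201; with 1 replicate left out it ran from 51.2% to 53.0%. The share of Ppp1r3c fell from 46.1% of TPM to 26.9% of expected counts, behind Ppp1r3a, and ran from 40.7% to 51.6% with 1 replicate left out. With spike-in totals as the scale, the median gene moved to 0.24 and the log2 ratio of 15 members that had passed the test changed sign: Hk2 to 0.058, Ugp2 to 0.028, Gys1 to 0.10, Gyg to 0.13, Pgam2 to 0.11, Gbe1 to 0.080, Tpi1 to 0.11, Ldhb to 0.17, Aldoa to 0.16, Pkm to 0.077, Gpi1 to 0.18, Gapdh to 0.14, Eno3 to 0.20, Pgk1 to 0.12 and Ldha to 0.020. Pfkm, Pygm and Slc16a1, which lay near 0 and had not passed on the TMM scale, moved to 0.22, 0.24 and 0.24. The cause was not tested. No paired analysis was possible because there is only 1 group. The summed level of 20 of 22 steps moved by more than 1 SD in the second quantification. Depth limits the members under 1 TPM, whose intervals are the widest.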
